A study of Homo sapiens with 4 samples.

Results

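The EGF receptor family and its ligands were followed in HCT116 cells, an established human colorectal carcinoma line, through 10 genes. The genes were chosen by name, with earlier results of these data known. These were the receptor genes EGFR, ERBB2 and ERBB3, the ligand genes AREG, EREG, TGFA, HBEGF, BTC and EPGN, and ERRFI1, which encodes an intracellular inhibitor of the receptors. All 10 were found by symbol among the 29286 genes listed in each library. The study compared cells infected with a lentivirus for a short hairpin against WDR43 (shWDR43, labelled as WDR43 knockdown) with cells infected with a control hairpin virus (shNC, named shNC2 in the sample titles). Both groups were kept for 48 h after infection and then selected with puromycin for 3 days, and each had 2 libraries. The labels name the WDR43 hairpin only as shWDR43 and do not say whether both libraries carry the same sequence. They do not say that replicates came from separate cultures, and a p-value here covers the spread among these libraries, possibly a technical one, and nothing wider.

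EGF family ligands are made as membrane-anchored precursors that metalloproteases such as ADAM17 cut free. A ligand bound to EGFR makes receptors pair with each other, which switches on their kinase domains and, through adaptor proteins such as GRB2, the ERK cascade. ERBB2 has no known soluble ligand and acts as a partner, and ERBB3 binds neuregulins and has little kinase activity of its own. In colorectal cancer, AREG and EREG are known as the main ligands of EGFR and have been studied as markers of response to EGFR antibodies.

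Of the 10 genes, 9 were high enough to be tested, and TGFA was the only one that passed, beside 6.26% of all tested genes. TGFA rose in shWDR43 cells to 1.52 times its shNC level. EREG was lower by a log2 difference of -0.38 and fell just outside the threshold, while the 3 receptor genes and ERRFI1 differed between the groups by at most 0.16 on the log2 scale. Levels are taken as FPKM, a count of fragments relative to transcript length and to the mapped total, and this unit was inferred from the values. Log2 differences are shWDR43 minus shNC on log2(FPKM + 1). They were tested with limma and adjusted over 13303 genes by the Benjamini-Hochberg method at a threshold of 0.05. In such bulk RNA a change in the number of cells that make a transcript and a change in its amount per cell cannot be told apart.

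The 4 libraries had FPKM sums of 393582 to 413758, and the read depth behind them is unknown. WDR43 itself was not analysed here, so the knockdown labels were not checked against their target. Of 12 colon epithelial markers, 9 reached 1 FPKM in every library, among them EPCAM, KRT8, KRT18, KRT19 and CDH1, while LGALS4, VIL1 and GPA33 did not. The summed level of the 12 was 2641 and 2613 FPKM in shWDR43 and 1829 and 2169 FPKM in shNC, most of it from KRT8, KRT18 and KRT19. Of the 9 tested, 3 were called higher (KRT8, CLDN4 and CLDN7) and 0 lower, a share of 33.3% against 6.26% of all tested genes. The KRT8 call held in 6 of 12 alternatives, that of CLDN4 in 8 and that of CLDN7 in 11. KRT18 and KRT19 had log2 differences of 0.44 and 0.36 that did not pass. Those of EPCAM, CDH1, CLDN3 and CDX2 were -0.07, -0.11, -0.26 and -0.03 and did not pass either. Of 12 markers of blood, endothelial and stromal cells, 9 had values, and 3 of them (CD68, COL1A1 and ACTA2) reached 1 FPKM. Their sum was 30.9 and 26.4 FPKM in shWDR43 and 17.0 and 17.2 FPKM in shNC. CD68 (log2 difference 1.26, limma adjusted p = 0.00646) and ACTA2 (0.89, adjusted p = 0.0314) were called higher, each by more than any gene of the family and each in 11 of 12 alternatives, and COL1A1, at -0.18, was not called. The part of these marker differences in the results was not tested. The endothelial markers PECAM1 and VWF and the fibroblast markers COL3A1 and DCN were at 0.128 FPKM or below in all libraries. Genes encoded in mitochondria took 24.6% and 23.9% of the sum in shWDR43 and 26.8% and 25.5% in shNC.

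Of the ligand genes, 4 lie within 486 kb of each other on chromosome 4 (GRCh38, GENCODE release 29), in the order EPGN (74308473 to 74315307, plus strand), EREG (74365143 to 74388751, plus strand), AREG (74445134 to 74455009, plus strand) and BTC (74744759 to 74794686, minus strand). TGFA lies on chromosome 2 (70447280 to 70554193, minus strand) and HBEGF on chromosome 5 (140332843 to 140346631, minus strand). EGFR is on chromosome 7 (55019021 to 55211628, plus strand), ERBB2 on chromosome 17 (39687914 to 39730426, plus strand), ERBB3 on chromosome 12 (56076799 to 56103505, plus strand) and ERRFI1 on chromosome 1 (8004404 to 8026308, minus strand).

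The start regions of 3 ligand genes are shown because they belong to the most abundant ligand (AREG), the ligand with the lowest log2 difference (EREG) and the gene that rose (TGFA). Each runs from 250 bases before to 50 bases after a start site in RefSeq on GRCh38.p14, 5′ to 3′ on the gene's strand. Capitals mark every match, on either strand, to the GC box GGGCGG, the TATA box TATAAA, the cAMP response element TGACGTCA, the AP-1 motif TGANTCA and CCAAT. AREG is at chr4:74444886-74445185 (plus strand), EREG at chr4:74364895-74365194 (plus strand) and TGFA at chr2:70553777-70554076 (minus strand).
AREG: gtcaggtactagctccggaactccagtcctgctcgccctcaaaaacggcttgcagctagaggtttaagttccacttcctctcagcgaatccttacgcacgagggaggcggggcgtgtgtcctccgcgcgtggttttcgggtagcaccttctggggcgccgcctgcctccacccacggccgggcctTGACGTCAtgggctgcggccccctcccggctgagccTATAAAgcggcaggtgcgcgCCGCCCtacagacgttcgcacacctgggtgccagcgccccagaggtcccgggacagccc
EREG: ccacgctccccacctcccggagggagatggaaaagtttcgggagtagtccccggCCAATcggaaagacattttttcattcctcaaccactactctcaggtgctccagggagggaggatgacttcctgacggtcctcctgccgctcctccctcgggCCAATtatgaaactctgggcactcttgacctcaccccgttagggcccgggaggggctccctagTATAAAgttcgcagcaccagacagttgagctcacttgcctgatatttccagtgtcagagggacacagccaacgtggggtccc
TGFA: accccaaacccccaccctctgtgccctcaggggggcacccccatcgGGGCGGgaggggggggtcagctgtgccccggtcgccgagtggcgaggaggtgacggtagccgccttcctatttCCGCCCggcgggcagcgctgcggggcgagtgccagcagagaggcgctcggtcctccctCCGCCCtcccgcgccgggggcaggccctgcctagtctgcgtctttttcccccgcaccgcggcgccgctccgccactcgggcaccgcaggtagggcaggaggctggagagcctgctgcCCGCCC
The AREG region held a cAMP response element that begins at position -65 from the start, a TATA box at -29 and a GC box at -9. The EREG region held a TATA box at -32 and 2 CCAAT matches, but no cAMP response element and no GC box. The TGFA region held 4 GC boxes and no TATA box, and 75.3% of its bases were G or C, against 66.3% for AREG, 57.7% for EREG and a median of 58.7% over 35116 such windows. A second TGFA start in the same table (chr2:70553397-70553696) held none of the 5 motifs. Over all windows, GGGCGG was found in 45.0%, TATAAA in 11.5%, TGACGTCA in 1.8%, TGANTCA in 7.7% and CCAAT in 34.6%. Windows were found for 9 of the 10 genes, and those of EPGN and the later EGFR start also held TATAAA. Those of HBEGF, ERRFI1, BTC and the earlier EGFR start held at least 1 GC box and no TATAAA, as that of TGFA did. Their G or C share was 75.0%, 74.7%, 63.0% and 75.3%, so these traits were not particular to TGFA. The TGANTCA and TGACGTCA patterns cannot match the same letters in full. These matches describe letters, and no binding was measured.

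The members differed widely in level. ERRFI1 and AREG were the highest, with means over the 4 libraries of 765 and 602 FPKM, followed by EREG at 145, TGFA at 29.1, EGFR at 24.5, ERBB2 at 13.2, ERBB3 at 9.15, HBEGF at 6.39, BTC at 1.48 and EPGN at 0.173 FPKM. Over the 4 libraries the ranges of neighbours in this order were separate except for TGFA and EGFR. In shWDR43 TGFA was above EGFR in both libraries, and in shNC its 2 values lay between those of EGFR. On this length-scaled measure ERRFI1 was at 31.2 times and AREG at 24.6 times the level of EGFR. ERRFI1 ranked 58 and 56 among all listed genes in shWDR43 and 48 and 61 in shNC, and AREG ranked 67 and 70 in shWDR43 and 77 and 76 in shNC.

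**Figure D1:**
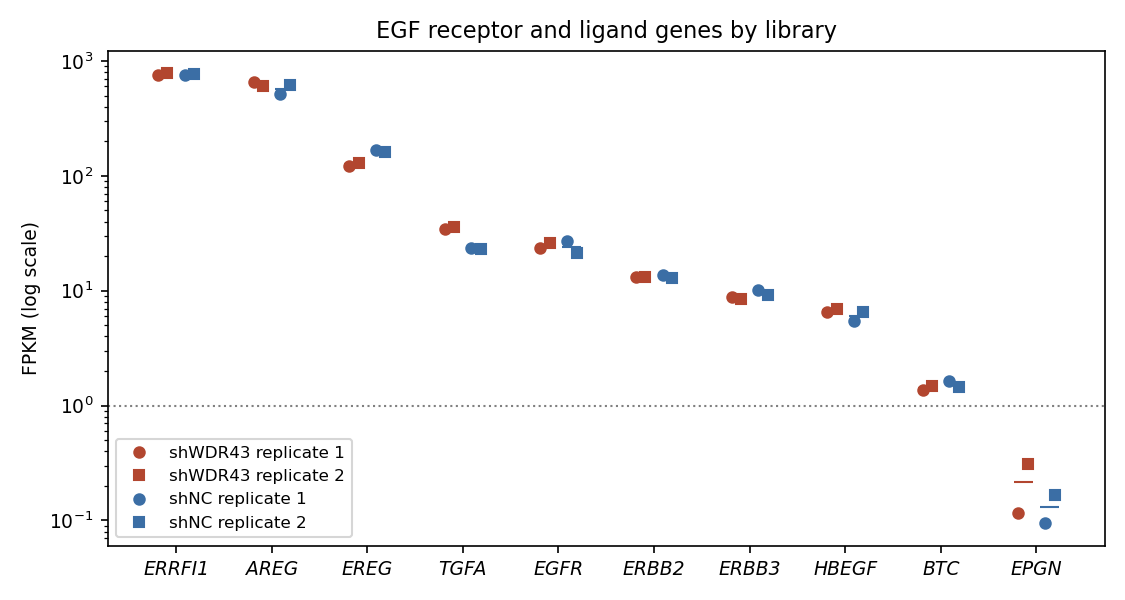
FPKM of each gene in each library on a log axis, with shWDR43 in red on the left of each pair and shNC in blue, replicate 1 as circles, replicate 2 as squares and short lines at group means (n = 2 each). The dotted line marks 1 FPKM. The genes run from ERRFI1 at a mean of 765 FPKM to EPGN at 0.173 FPKM, and the groups separate visibly for TGFA and EREG.

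Transforming growth factor alpha, the product of TGFA, is a ligand of EGFR alone among the receptors. TGFA was at 34.7 and 35.5 FPKM in shWDR43, against 23.3 and 22.9 FPKM in shNC. Both shWDR43 libraries were above both shNC libraries, by 0.55 to 0.61 in each pair of libraries on the log2(FPKM + 1) scale. The log2 difference was 0.58 ± 0.08 (SE, n = 2 per group; limma adjusted p = 0.0156), and it lay above that of 98.0% of all tested genes. Adjusted p ran from 0.00206 to 0.0934 over 12 alternative settings, and the call held in 11 of them. The value of 0.00206 came from the crossed replicate block, which was chosen after seeing the data. The call was lost without the filter on low values, where 26938 genes were tested and the difference itself was also 0.58. TGFA-IT1, an intronic transcript on the same strand, lies within the gene.

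Epiregulin, the product of EREG, binds EGFR and ERBB4. EREG was at 122 and 130.5 FPKM in shWDR43 and at 166 and 162 FPKM in shNC. Both shWDR43 libraries were below both shNC libraries. The log2 difference was -0.38 ± 0.09 (SE, n = 2 per group; limma adjusted p = 0.0532, unadjusted p = 0.00365), with a 95% interval of -0.59 to -0.16, so it did not pass. It lay between -0.45 and -0.33 under the 12 alternative settings and passed in 6. Among the 6 were the filter at 5 FPKM, upper-quartile scaling and robust settings off. Another was the crossed replicate block, chosen after seeing the data, which called 1375 genes higher and 579 lower in all, against 637 and 196 as reported. The others were the fits without shNC replicate 1 (difference -0.36) or shNC replicate 2 (-0.40), which leave a lone shNC library. It did not pass without the filter on low values (limma adjusted p = 0.141) or with the replicate block (limma adjusted p = 0.126). The pseudocount of 0.1 (limma adjusted p = 0.0526) and median-ratio scaling (limma adjusted p = 0.0515) did not make it pass either. Nor did it pass without shWDR43 replicate 1 (difference -0.33) or shWDR43 replicate 2 (-0.43), which leave a lone shWDR43 library.

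Amphiregulin, the product of AREG, is a ligand of EGFR that colorectal cancer cells often make in large amounts. AREG was at 662 and 609 FPKM in shWDR43 and at 517 and 619.6 FPKM in shNC. The groups overlapped, since shNC replicate 2 was above shWDR43 replicate 2. The log2 difference was 0.17 ± 0.13 (SE, n = 2 per group; limma adjusted p = 0.443), with a 95% interval of -0.13 to 0.46. Without shNC replicate 2 it was 0.30 and passed (adjusted p = 0.0284), and without shNC replicate 1 it was 0.035 (adjusted p = 0.774), so the library left out decided the value. Over its 12 alternatives adjusted p ran from 0.0284 to 0.916.

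Heparin-binding EGF-like growth factor, encoded by HBEGF, binds EGFR and ERBB4 and is also the diphtheria toxin receptor. HBEGF was at 6.59 and 6.95 FPKM in shWDR43 and at 5.47 and 6.53 FPKM in shNC. The groups did not overlap but nearly touched, and the log2 difference of 0.15 ± 0.11 (SE) did not pass (limma adjusted p = 0.415, 95% interval -0.10 to 0.41). Betacellulin, encoded by BTC, was at 1.37 and 1.48 FPKM in shWDR43 and at 1.64 and 1.45 FPKM in shNC. The BTC groups overlapped, with a log2 difference of -0.07 ± 0.13 (SE; limma adjusted p = 0.778). Epigen, encoded by EPGN, was at 0.117 and 0.313 FPKM in shWDR43 and at 0.0947 and 0.167 FPKM in shNC, under the filter of 1 FPKM in at least 2 libraries, and was not tested. EPGN was thus at the floor of these libraries while its neighbours EREG and AREG on the same chromosome were at 145 and 602 FPKM on average.

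**Figure D2:**
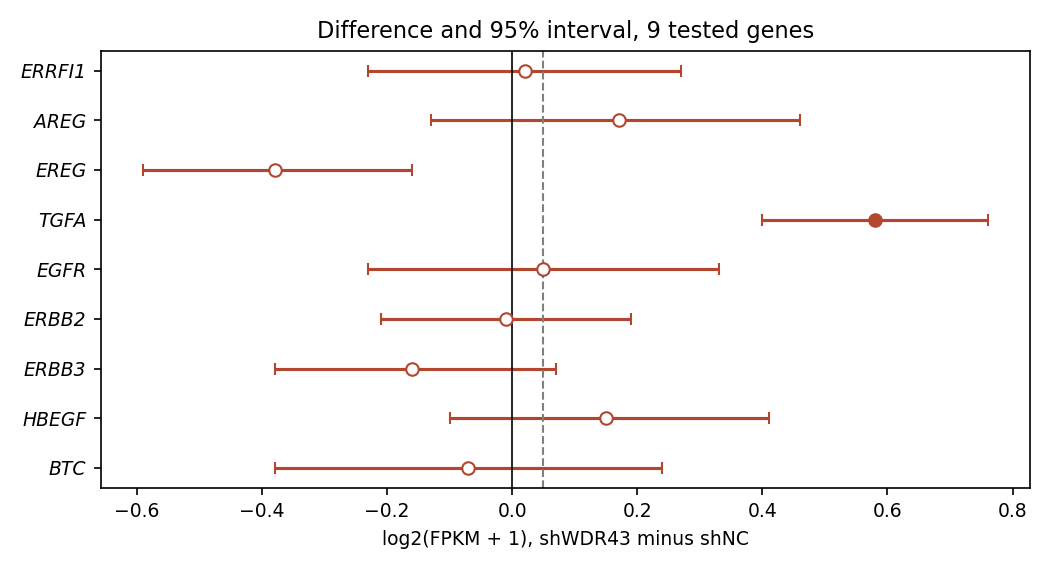
Log2 difference in log2(FPKM + 1), shWDR43 minus shNC, with its 95% interval for the 9 tested genes, filled where the adjusted p was below 0.05. The solid line is 0 and the dashed line the median of all 13303 tested genes, 0.05. TGFA is the only filled point, at 0.58, and the interval of EREG, -0.59 to -0.16, also lies off 0.

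Summed over the 6 ligand genes, the level was 827 and 784 FPKM in shWDR43 and 714 and 812 FPKM in shNC, so the groups overlapped. AREG and EREG together made up 94.8% and 94.4% of this sum in shWDR43 and 95.7% and 96.2% in shNC. The share of EREG was 14.7% and 16.7% in shWDR43, against 23.3% and 19.9% in shNC. The share of AREG was 80.1% and 77.7% in shWDR43 and 72.4% and 76.3% in shNC. TGFA took 4.20% and 4.53% of the sum in shWDR43 and 3.27% and 2.82% in shNC. The ratio of AREG to EREG was 5.43 and 4.67 in shWDR43 and 3.11 and 3.83 in shNC. None of these shares and ratios overlapped between the groups, but neither did the levels of 57.3% of all tested genes. The shares and ratios depend on each other, and no test was made of them.

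**Figure D3:**
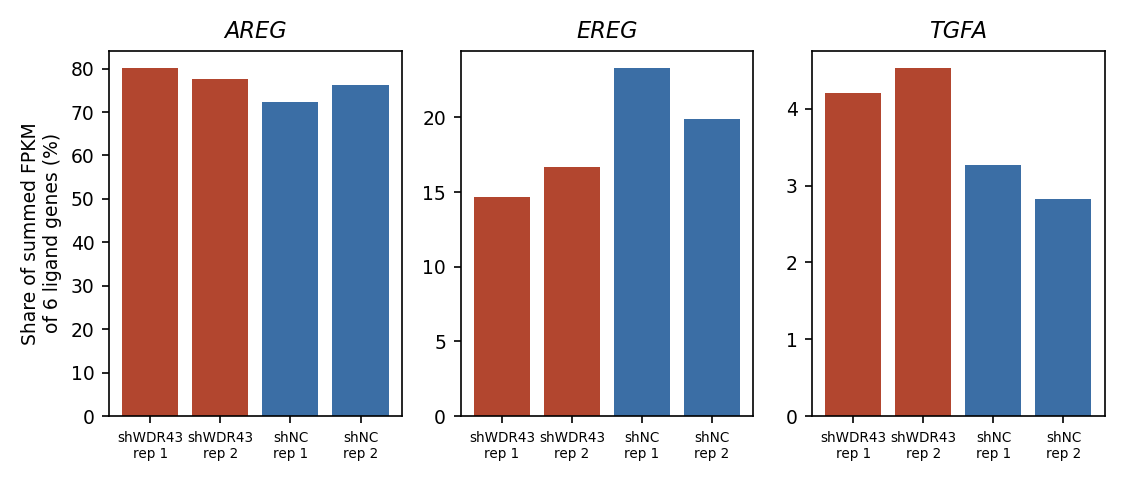
Share of the summed FPKM of the 6 ligand genes that AREG, EREG and TGFA took in each library, in percent, with shWDR43 in red and shNC in blue. Each panel has its own axis from 0. The EREG share is 14.7% and 16.7% in shWDR43 and 23.3% and 19.9% in shNC.

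EGFR, the receptor of all 6 ligands, was at 23.5 and 26.3 FPKM in shWDR43 and at 27.0 and 21.3 FPKM in shNC. The shNC libraries lay on either side of both shWDR43 libraries. The log2 difference was 0.05 ± 0.12 (SE, n = 2 per group; limma adjusted p = 0.83), with a 95% interval of -0.23 to 0.33. Its sign was negative under median-ratio and upper-quartile scaling, without shWDR43 replicate 2 and without shNC replicate 2. EGFR-AS1 overlaps EGFR on the opposite strand, and whether the counting used strand is not known here.

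ERBB2, the partner receptor, was at 13.2 and 13.1 FPKM in shWDR43 and at 13.6 and 12.8 FPKM in shNC. The groups overlapped, with a log2 difference of -0.01 ± 0.09 (SE; limma adjusted p = 0.966) and a 95% interval of -0.21 to 0.19. ERBB2 overlaps PGAP3 by 8884 bases and MIEN1 by 1931 bases on the opposite strand, and MIEN1 was called higher (log2 difference 0.38, adjusted p = 0.0484), so reads in the shared stretch are uncertain. ERBB3, the neuregulin receptor, was at 8.80 and 8.40 FPKM in shWDR43 and at 10.2 and 9.18 FPKM in shNC. Both shWDR43 libraries were below both shNC libraries, but the log2 difference of -0.16 ± 0.10 (SE) did not pass (limma adjusted p = 0.342, 95% interval -0.38 to 0.07).

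ERRFI1 encodes MIG6, which binds the kinase domain of activated EGFR and blocks it, and is itself induced by receptor signalling. ERRFI1 was at 757 and 782 FPKM in shWDR43 and at 755.5 and 765 FPKM in shNC. Its highest value was 1.04 times its lowest, the smallest such ratio of the 10 genes. The log2 difference was 0.02 ± 0.11 (SE, n = 2 per group; limma adjusted p = 0.936), with a 95% interval of -0.23 to 0.27. It was negative under both scalings, as was the median of all tested genes after upper-quartile scaling (-0.01, against 0.05 as reported), and without shWDR43 replicate 2.

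Of the 9 tested members 1 was called, TGFA, upward, and 0 downward, against 6.26% of all tested genes called in either direction, 4.79% upward and 1.47% downward. With 9 genes, 1 call does not set the family apart from this background. Over all tested genes 637 were higher and 196 lower, and that split became 295 to 221 with median-ratio scaling and 327 to 287 with upper-quartile scaling. The groups did not overlap for 4 of the 9 (TGFA and HBEGF above, EREG and ERBB3 below), against 57.3% of all tested genes, 35.8% with shWDR43 above and 21.5% with shWDR43 below. The median log2 difference of the 9 was 0.02, and that of all tested genes was 0.05. An exact permutation test of any single gene with 2 libraries per group cannot give a p below 0.333.

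**Figure D4:**
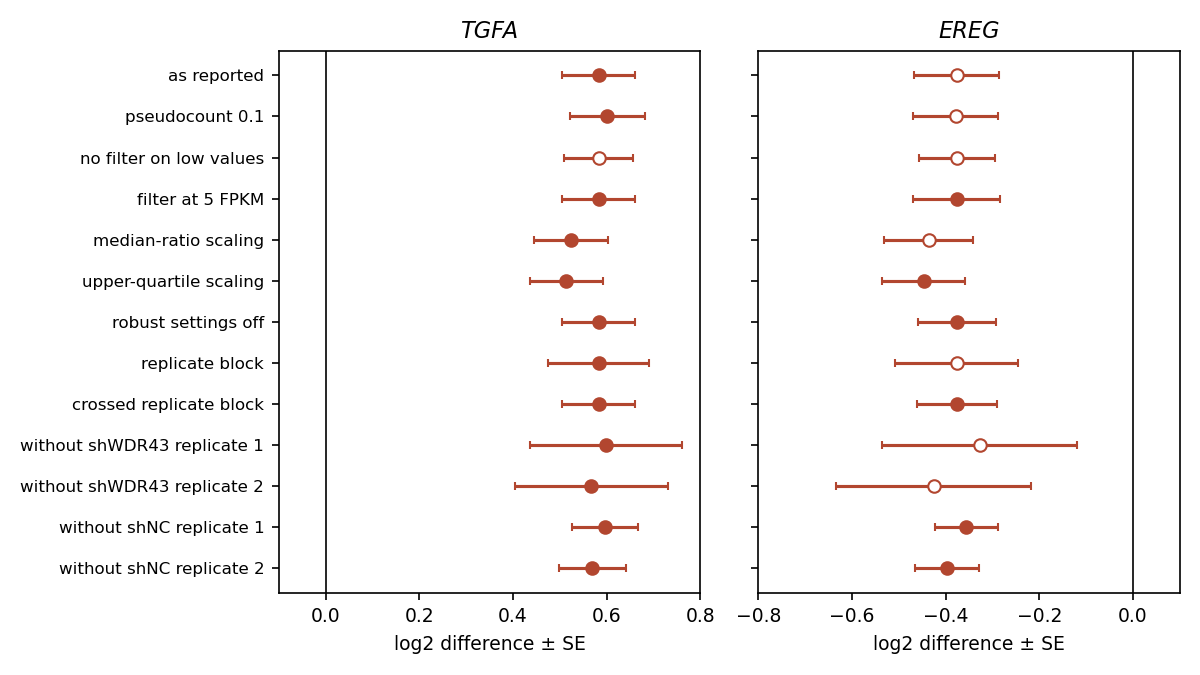
Log2 difference ± SE of TGFA and EREG, shWDR43 minus shNC, as reported and under the 12 alternative settings, filled where the adjusted p was below 0.05. TGFA is filled in all but the fit without a filter on low values, and EREG in 6 of the 12 alternatives, with its values between -0.45 and -0.33.

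The remaining genes of the family were low. ERBB4, the fourth receptor, was at 0.0299 and 0.0502 FPKM in shWDR43 and at 0.0915 and 0.060 FPKM in shNC. EGF, the founding ligand, was at 0.0884 and 0.151 FPKM in shWDR43 and at 0.196 and 0.210 FPKM in shNC. NRG1, a ligand of ERBB3 and ERBB4, was at 0.629 and 0.936 FPKM in shWDR43 and at 0.41 and 0.643 FPKM in shNC. NRG2 was at 0.303 and 0.283 FPKM in shWDR43 and at 0.193 and 0.455 FPKM in shNC, and NRG4 at 0.23 and 0.316 FPKM in shWDR43 and at 0.519 and 0.429 FPKM in shNC. All 5 stayed under 1 FPKM in every library and were not tested, and for NRG3 the values used here held none.

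None of the 12 tested genes of ligand shedding was called by limma, against 6.26% of all tested genes, and 2 had an unadjusted p below 0.05, as did 26.4% of all tested genes. ADAM17, the main protease that releases amphiregulin and TGF-alpha, averaged 21.3 FPKM in shWDR43 and 20.2 FPKM in shNC, a log2 difference of 0.09 (adjusted p = 0.669). Its regulator RHBDF1, an inactive rhomboid protein, was at 6.94 and 6.47 FPKM in shWDR43 and at 5.13 and 5.45 FPKM in shNC, a log2 difference of 0.29 ± 0.10 (SE; adjusted p = 0.116). The disintegrin metalloprotease gene ADAM15 was at 32.5 and 34.7 FPKM in shWDR43 and at 26.7 and 28.3 FPKM in shNC, a log2 difference of 0.28 ± 0.08 (SE; adjusted p = 0.0831). ADAM17 was added to the named genes after its value was seen. The median of the list was 0.09.

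Among 35 tested genes of signal transduction below the receptors, 1 rose and 0 fell, a called share of 2.9% against 6.26% of all tested genes, with a median log2 difference of 0.05. The gene that rose was MAP2K1, which encodes the ERK-activating kinase MEK1, at 24.9 FPKM in both shWDR43 libraries and at 18.1 and 17.8 FPKM in shNC (log2 difference 0.45 ± 0.08 SE, limma adjusted p = 0.0281), a call that held in 9 of 12 alternatives. Of 35 tested genes listed under receptor restraint and trafficking, 2 rose and 0 fell, a called share of 5.7% against the same 6.26%. The median of this list was 0.06, and the listing does not say which way each gene acts on the receptors. TRAF4, an adaptor ubiquitin ligase, was at 22.2 and 22.3 FPKM in shWDR43 and at 17.3 and 16.4 FPKM in shNC (adjusted p = 0.0419). AP2A1, a subunit of the clathrin adaptor that takes receptors into the cell, was at 34.0 and 33.6 FPKM in shWDR43 and at 27.1 and 25.7 FPKM in shNC (adjusted p = 0.0484). The TRAF4 call held in 6 of 12 alternatives, with adjusted p up to 0.23, and the AP2A1 call in 5 of 12, with adjusted p up to 0.309.

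Of 25 tested transcripts known to depend on ERK activity, 3 rose and 0 fell. In this list 14 log2 differences were positive and 11 negative, with a median of 0.07. The lowest were those of SPRY4 at -0.32, PHLDA1 and ETV1 at -0.29 and SPRY1 at -0.25, none of them called. These genes were added to the named genes after their values were seen. The called share was 12.0%, against 6.26% of all tested genes. It rests on 3 calls in a list chosen with earlier results of these data known, so it does not set the list apart. CCND1, the cyclin D1 gene, rose to 151 and 154 FPKM in shWDR43, against 75.6 and 78.5 FPKM in shNC (log2 difference 0.97 ± 0.08 SE, limma adjusted p = 0.00346). EPHA2, an ephrin receptor gene, was at 84.4 and 86.3 FPKM in shWDR43 and at 62.8 and 59.2 FPKM in shNC (adjusted p = 0.0263), and DUSP5, a nuclear ERK phosphatase gene, at 165 and 169 FPKM in shWDR43 and at 107 and 126 FPKM in shNC (adjusted p = 0.036). The CCND1 call held in all 12 alternatives, that of EPHA2 in 9 and that of DUSP5 in 6, with adjusted p up to 0.157 for DUSP5. Over all these pathway lists, without the members, 6 of 107 tested genes were called, all upward, a share of 5.6% against the background of 6.26%. The count of 6 was 3 after either scaling, and it was 1 without shWDR43 replicate 1 or 2, 12 without shNC replicate 1 and 14 without shNC replicate 2, where 5 and 9 were called lower.

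**Figure D5:**
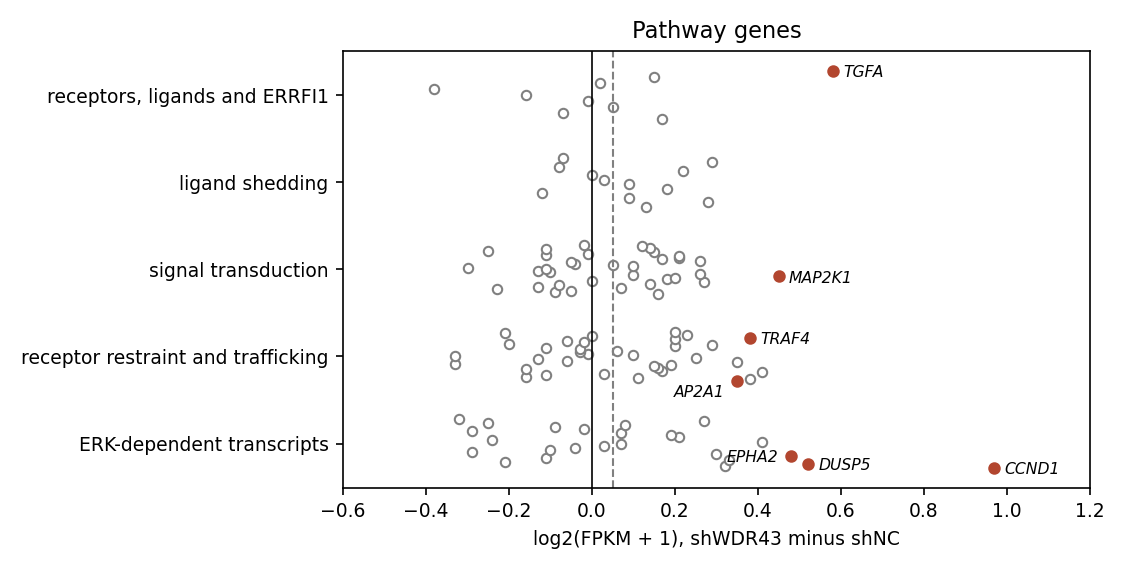
Log2 difference in log2(FPKM + 1), shWDR43 minus shNC, of every tested gene of the family and of 4 pathway lists, with called genes in red and named. The solid line is 0 and the dashed line the median of all tested genes, 0.05. TGFA, MAP2K1, TRAF4, AP2A1, EPHA2, DUSP5 and CCND1 are the called genes, all to the right of 0.

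Genes within 100 kb of the members were read for comparison, and 25 that are no members were tested. Near ERBB2 these were STARD3, PGAP3, MIEN1 and GRB7, near HBEGF they were CYSTM1, PFDN1, ANKHD1 and ANKHD1-EIF4EBP3, and near ERRFI1 they were PARK7 and the antisense transcript AL034417.4. MTHFD2L lies before EPGN and EREG, and AC239584.1 beyond AREG. ERBB3 had 13 such neighbours, RAB5B, SUOX, IKZF4, RPS26, PA2G4, RPL41, ZC3H10, ESYT1, AC034102.6, MYL6B, MYL6, SMARCC2 and RNF41, of which RNF41 encodes a ubiquitin ligase that acts on the ERBB3 protein. Of the 25, 2 were higher, MIEN1 and CYSTM1 (log2 difference 0.53, limma adjusted p = 0.0485), and 1 was lower, ANKHD1-EIF4EBP3 (log2 difference -0.81, adjusted p = 0.0157). These 3 made up 12.0% of the neighbours, against 6.26% of all tested genes, 4.79% higher and 1.47% lower. ANKHD1-EIF4EBP3 is a readthrough gene that shares exons with ANKHD1, so its value is uncertain. MTHFD2L, next to the chromosome 4 ligand genes, had a log2 difference of 0.10 (adjusted p = 0.616). No gene but the members was tested within 100 kb of EGFR, TGFA or BTC.

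The genes whose pattern over the 4 libraries was most like that of TGFA were GALNT18, MCM6 and RPS27L. The log2(FPKM + 1) values of each gene were centred on its own mean over the 4 libraries. Likeness was the Euclidean distance between these centred values among 8106 candidate genes, and the distances were 0.025, 0.038 and 0.038. GALNT18, a glycosyltransferase gene, was at 10.9 and 11.2 FPKM in shWDR43 and at 6.96 and 6.83 FPKM in shNC. MCM6, a subunit gene of the replicative helicase, was at 20.5 and 21.4 FPKM in shWDR43 and at 14.1 and 13.8 FPKM in shNC. RPS27L, a ribosomal protein gene, was at 9.44 and 10.1 FPKM in shWDR43 and at 6.21 and 6.04 FPKM in shNC. With 4 libraries in 2 groups, any gene that differs by a like amount with small spread comes out as alike.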

How the data were processed

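Per the labels' protocols, Trizol-extracted RNA (1 ug) went into an Illumina TruSeq preparation. The submitters' processing notes name CASAVA 1.8, Trimmomatic, FastQC, HISAT2, RSEM, edgeR and GRCh38, with no role or order. Annotation and strandedness: not given in the sources used here. Units of the deposited values are taken as the authors' FPKM, inferred because they are not whole and sum to 393582 to 413758 a library, and a partial TPM table remains possible. At most 1.01% of low genes shared a ratio within 1% between libraries, so reads were not recovered and no interval that needs counts is given.

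The 29286 identifiers (1 blank entry left out) were matched to symbols for 29170 and to GENCODE release 29 for 28468. Genes that reached 1 FPKM in 2 or more libraries were fitted as log2(FPKM + 1) with limma 3.58.1 in R 4.3.3, the group as the only term and trend and robust moderation, with two-sided Benjamini-Hochberg adjusted p-values over 13303 genes. The script was tested on simulated data. Named are all members, up to 4 called genes per pathway list (the 2 with the smallest p where none was called), every listed gene of the family's other receptors and ligands, tested genes within 100 kb of a member, and the 3 genes nearest in profile to the member with the smallest p. The members and lists were chosen with earlier results of these data known. Alternatives were a pseudocount of 0.1, no filter, a filter at 5 FPKM, median-ratio and upper-quartile scaling, robust settings off, a replicate block, a crossed block and leaving out each library. Other steps used Python 3.11.15 with pandas 2.3.3, and matplotlib 3.10.9 for figures.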

Additional observations from a re-analysis of the deposited data

How the results depend on the processing

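Every value is a comparison of 2 libraries with 2 at unknown depth, and the cause of the changes below was not tested. Without the filter on low values, 0 members, 1 other pathway gene and 15 of all tested genes were higher, and 2 of all were lower. Median-ratio scaling gave 3 higher pathway genes and 295 higher genes in all, and upper-quartile scaling 3 and 327. EREG became 1 lower member under upper-quartile scaling, the filter at 5 FPKM and robust settings off. Leaving out each library in turn gave 1 to 2 higher and 0 to 1 lower members, 1 to 14 higher and 0 to 9 lower pathway genes, and 245 to 1802 higher and 132 to 784 lower genes in all. The EGFR difference was -0.0076 and -0.0183 under the median-ratio and upper-quartile scalings, -0.0278 without shWDR43 replicate 2, and -0.11 to 0.21 over the 4 fits without a library. The ERRFI1 difference was -0.0423 and -0.0534 under the scalings and -0.0051 to 0.0408 over the fits without a library, and that of ERBB2 was -0.0468 to 0.0311 over those fits, none of them called. A fit that leaves out a library assumes that the lone library varies like the other group.

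Same-numbered libraries did not deviate together (correlation -0.147 across genes). This cannot decide whether they were prepared as pairs, which the labels do not say. With the replicate block, 3 pathway genes and 413 genes in all were higher, and TGFA stayed called. A crossed block, chosen after seeing the data, gave 1 lower member, 12 higher and 3 lower pathway genes, and 1375 higher and 579 lower genes in all. The pseudocount of 0.1 changed no call among the members.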
